A study of Mus musculus with 17 samples.

Results

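Melanocyte pigment genes were followed through the healing of irradiated and control mouse skin. The genes are Tyr, Tyrp1, Dct, Pmel, Mlana, Oca2, Slc45a2 and Mitf, chosen by name as 8 of the 34140 gene rows measured, and all 8 had a row. The tissue is skin of C57/BL6j mice, the black laboratory strain, with no further allele named in the labels. Libraries labelled ionizing radiation cover day 3 (3 libraries), day 6 (2) and day 9 (3) after injury, and libraries labelled control cover day 0 (2), day 3 (2), day 6 (2) and day 9 (3). No irradiated library of day 0 was analysed here. The dose, the field and the kind of injury are not given in the labels, and neither are the age and sex of the animals. The stated aim is to find molecules that act when irradiated wounds heal.

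Melanocytes make melanin inside melanosomes, organelles related to lysosomes, and hand it to keratinocytes. Tyrosinase (Tyr) catalyses the rate-limiting step, the oxidation of tyrosine, and the related enzymes Dct and Tyrp1 act later on the way to black eumelanin. Pmel forms the fibrils on which melanin is laid down, and Mlana is a melanosome protein that aids Pmel processing. Oca2 and Slc45a2 are melanosomal membrane transporters that keep the organelle's interior suited to tyrosinase. Mitf is the transcription factor that defines the lineage and drives most of these genes. In the haired trunk skin of mice, melanocytes sit mainly in hair follicles, and melanin is made during the growth phase of the hair cycle (anagen). Whole skin was sequenced, so fewer melanocytes and less pigment RNA per melanocyte cannot be told apart in any value below.

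The start regions of 3 enzyme genes are shown because these genes varied together across libraries, as described further on, and because Mitf is known to bind an extended E-box, TCATGTG (the M-box), in them. Windows of 250 bases before to 50 after the gene start came from RefSeq on build GRCm38.p6, where 5 of the 8 genes had a window. Capitals mark TCATGTG or its reverse complement CACATGA, and each run reads 5′ to 3′ on the gene's strand. The regions are chr7:87493463-87493762 on the minus strand for Tyr, chr4:80833963-80834262 on the plus strand for Tyrp1 and chr14:118052197-118052496 on the minus strand for Dct.
Tyr: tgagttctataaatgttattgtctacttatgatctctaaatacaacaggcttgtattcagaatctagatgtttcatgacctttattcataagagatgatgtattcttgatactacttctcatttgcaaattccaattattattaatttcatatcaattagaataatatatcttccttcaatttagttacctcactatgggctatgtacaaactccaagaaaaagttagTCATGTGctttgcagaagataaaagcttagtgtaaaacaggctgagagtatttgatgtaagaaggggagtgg
Tyrp1: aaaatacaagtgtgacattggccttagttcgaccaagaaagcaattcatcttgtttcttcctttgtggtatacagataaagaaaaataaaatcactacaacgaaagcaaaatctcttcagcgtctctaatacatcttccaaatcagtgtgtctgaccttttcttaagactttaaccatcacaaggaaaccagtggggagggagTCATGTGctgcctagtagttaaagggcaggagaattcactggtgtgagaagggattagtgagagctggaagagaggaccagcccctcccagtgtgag
Dct: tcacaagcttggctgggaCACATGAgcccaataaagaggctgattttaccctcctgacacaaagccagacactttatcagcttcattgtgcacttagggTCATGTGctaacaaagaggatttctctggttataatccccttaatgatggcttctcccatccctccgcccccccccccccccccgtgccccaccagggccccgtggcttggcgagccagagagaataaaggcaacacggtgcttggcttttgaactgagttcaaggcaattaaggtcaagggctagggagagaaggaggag
The motif begins 22 bases before the start in Tyr, 47 before it in Tyrp1 and 151 before it in Dct, and Dct holds a further copy, as CACATGA, 232 before its start. On either strand, TCATGTG was found in 3.77% of all 32851 windows of this length. The Oca2 window held only the shorter core, as CACATG, 186 bases before the start. That core, CATGTG or CACATG, lies within TCATGTG and was found in 14.2% of windows. None of the 3 Mitf windows held either motif, and the other E-box CACGTG, found in 7.15% of all windows, was in none of the members' windows. These are matches of letters and say nothing of binding in these samples. Windows for Pmel, Mlana and Slc45a2 were not used here.

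Levels are FPKM, a fragment count divided by the length of the gene and the depth of the library, which can be compared between genes. The libraries held 25440773 to 30797409 assigned fragments. Both day 0 libraries stood apart from the other 15. Genes of the mitochondrial genome made up 31.8% and 21.7% of all FPKM there, against 8.33% to 12.6% elsewhere, and 8 skeletal muscle markers summed to 23108.5 and 18548.9 FPKM there, against 1305 to 4541 elsewhere. Any comparison with day 0 therefore compares samples that also differ in muscle and mitochondrial RNA, whose part in the results was not tested. Replicate 3 of control day 9 stood apart from the other 2 libraries of its group in pigment and hair genes, so the counts at day 9 below are also given without it. The labels do not say whether the libraries of a group came from separate animals, and p-values here rest on the differences among the libraries at hand, which may be technical.

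Among the melanin enzymes, Dct was the most abundant. Dct (ENSMUSG00000022129, chromosome 14, 118012792 to 118052246) had 1.495 and 1.91 FPKM in control skin at day 0. At day 3 Dct had 4.34, 7.55 and 7.33 FPKM in irradiated libraries, against 4.89 and 5.73 FPKM in control libraries, and at day 6 it had 2.76 and 4.45 FPKM in irradiated libraries, against 2.56 and 8.44 FPKM in control libraries. At day 9 it had 6.94, 23.3 and 22.1 FPKM in irradiated libraries, against 20.5, 33.4 and 1.71 FPKM in control libraries. The arms overlapped on each day, and 4 of the 6 day 9 libraries lay above all libraries of the earlier days. Tyrp1 (ENSMUSG00000005994, chromosome 4, 80834123 to 80851719) was at 63.8%, 55.6% and 47.3% of the Dct level in irradiated and 55.1%, 51.8% and 35.1% in control libraries at day 9, with 4.43, 12.9 and 10.4 FPKM in irradiated libraries and 11.3, 17.3 and 0.600 FPKM in control libraries. Its earlier values were 0.917 and 0.901 FPKM in control skin at day 0, 2.66 to 4.42 FPKM in irradiated skin against 2.27 and 2.40 FPKM in control skin at day 3, and 1.47 and 2.002 FPKM against 1.16 and 4.64 FPKM at day 6. At day 3 all 3 irradiated libraries lay above both control libraries for Tyrp1.

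Tyrosinase itself was far lower. Tyr (ENSMUSG00000004651, chromosome 7, 87424771 to 87493512) had 0.395, 1.41 and 1.51 FPKM in irradiated skin at day 9, against 1.61, 3.19 and 0.0711 FPKM in control skin. In the other libraries Tyr stayed between 0.0330 and 0.386 FPKM. Set against Dct in the same library, the Tyr level was 5.70%, 6.05% and 6.83% of the Dct level in irradiated skin at day 9, and 7.84%, 9.55% and 4.16% in control skin at day 9. In the 11 libraries of days 0 to 6 it was 1.73% to 5.06%. The libraries with the most pigment RNA thus also had the most Tyr per Dct, and both low day 9 libraries, replicate 1 of the irradiated and replicate 3 of the control group, had the least of their groups.

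The melanosome protein genes had a like course. Pmel (ENSMUSG00000025359, chromosome 10, 128704195 to 128720238) had 3.93, 10.9 and 9.33 FPKM in irradiated skin at day 9, against 14.3, 26.2 and 1.20 FPKM in control skin, and 0.789 to 4.36 FPKM in the libraries of days 0 to 6. Mlana (ENSMUSG00000024806, chromosome 19, 29697921 to 29708448) had 4.51, 14.2 and 15.9 FPKM in irradiated skin at day 9, against 13.5, 27.4 and 3.65 FPKM in control skin. At day 3 Mlana had 6.36, 6.85 and 7.07 FPKM in irradiated skin, against 3.39 and 3.03 FPKM in control skin, with no overlap. The order was the opposite at day 6, with 2.77 and 2.89 FPKM in irradiated skin below 3.16 and 6.78 FPKM in control skin. At day 0 it had 0.694 and 1.61 FPKM. Mlana also had its highest share of pigment RNA in a low library. It made up 49.4% of the summed FPKM of the 7 genes other than Mitf in replicate 3 of control day 9, against a median of 27.1% over all libraries.

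The transporter genes were low before day 9. Slc45a2 (ENSMUSG00000022243, chromosome 15, 11000721 to 11029233) had 0.281, 0.684 and 0.996 FPKM in irradiated skin at day 9, against 1.20, 2.41 and 0.157 FPKM in control skin, and 0.0240 to 0.252 FPKM in the earlier libraries. Oca2 (ENSMUSG00000030450, chromosome 7, 56239760 to 56536518) reached 1 FPKM in 1 library only. Its fragments, recovered from the FPKM steps, numbered 4, 23 and 11 in irradiated skin at day 9, against 70, 127 and 1 in control skin at day 9, and 0 to 4 in each earlier library. In the 6 libraries with 0 Oca2 fragments, a count of 0 allows up to 0.0246 to 0.0298 FPKM, counting error alone. Irradiated and control libraries overlapped for both transporter genes at day 9, through replicate 3 of the control group.

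Mitf did not share this course. Mitf (ENSMUSG00000035158, chromosome 6, 97807052 to 98021349) ranged over 2.203-fold among the 17 libraries, against 22.3-fold for Dct, 28.8-fold for Tyrp1, 33.2-fold for Pmel, 39.5-fold for Mlana and 96.5-fold for Tyr. It had 4.55 and 5.25 FPKM in control skin at day 0. At day 3 it had 4.50, 5.81 and 4.64 FPKM in irradiated skin, against 3.76 and 3.14 FPKM in control skin, with no overlap. The arms overlapped later, at 4.37 and 3.07 FPKM in irradiated skin against 2.64 and 3.97 FPKM in control skin at day 6, and at 3.56, 4.49 and 4.29 FPKM against 3.65, 3.92 and 3.51 FPKM at day 9. The row sums all Mitf transcripts, which start at several promoters, so the melanocyte form was not separated. The library kit does not mark strand, so fragments of Dct, Pmel, Oca2 and Mitf cannot be told apart from those of genes that overlap them on the opposite strand, which for Pmel are the ends of Cdk2 and Dgka.

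**Figure D1:**
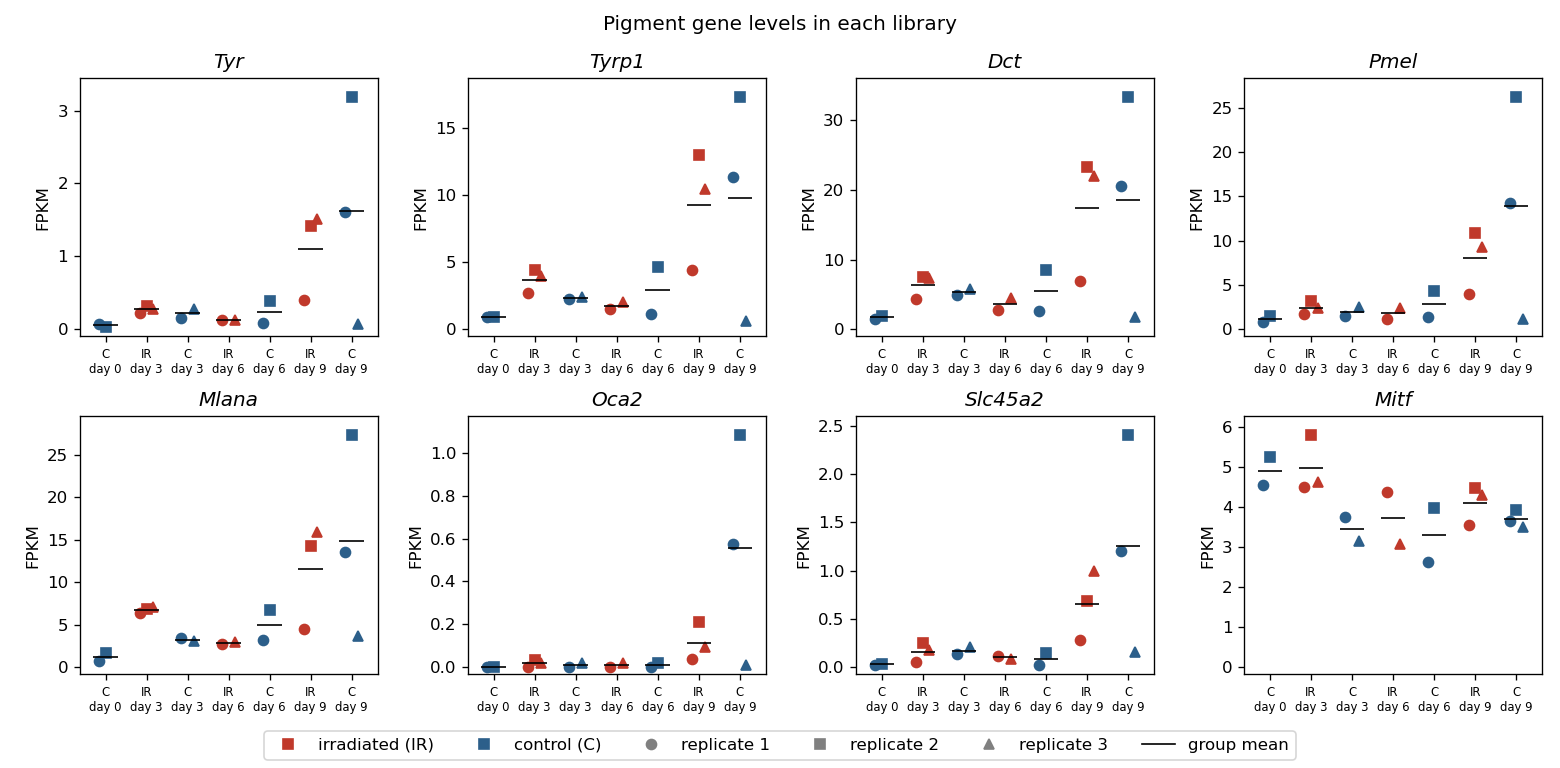
FPKM of the 8 genes (vertical axes, one scale per gene) in each library, by group; red points are irradiated (IR), blue points control (C) libraries, the shape gives the replicate number and the line is the group mean. Dct reached 33.4 FPKM in replicate 2 of control day 9 and 1.71 FPKM in replicate 3 of that group, while Mitf stayed between 2.64 and 5.81 FPKM.

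None of the 7 pigment genes that could be tested passed between irradiated and control skin on any day. Differences are log2 fold changes of FPKM + 1, irradiated over control, from limma-trend with Benjamini-Hochberg adjustment over the 15271 genes with at least 1 FPKM in at least 2 libraries, and an adjusted p under 0.05 passed. Oca2 failed the filter. Tyr and Slc45a2 passed it only through day 9 libraries. At day 3, 0 of 7 passed, against 1.85% of all tested genes. At day 6, 0 of 7 passed, against 0.275%, and at day 9, 0 of 7, against 5.38%. Averaged over the 3 days, with 8 irradiated and 7 control libraries, 0 of 7 passed against 6.93%. At an unadjusted p under 0.05, Mitf alone counted at day 3 and in the average, and no member did at day 6 or day 9. Of all 15271 tested genes, 1741, 2345 and 3470 did at days 3, 6 and 9, and 3464 in the average. These counts are also the background for the lists below. With limma-voom on recovered fragments, 0 passed in each of the 4 comparisons. An F test of whether the difference varied between days passed for 0 of 7 (0.0131% of all genes), with adjusted p from 0.599 to 0.967.

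The intervals were wide. At day 9 the log2 difference was 0.38 for Dct (95% interval -1.28 to 2.05), 0.42 for Tyrp1 (-1.13 to 1.97), -0.16 for Tyr (-0.98 to 0.66) and -0.20 for Pmel (-1.76 to 1.36). It was -0.14 for Mlana (-1.36 to 1.07) and -0.34 for Slc45a2 (-0.98 to 0.31). Values above 1 and below -1, a 2-fold difference of FPKM + 1, thus lie inside the intervals of Dct, Tyrp1, Pmel and Mlana. Adding 1 FPKM understates changes of low genes such as Tyr and Slc45a2, here and against day 0 below. Their narrower intervals therefore do not exclude a 2-fold difference of FPKM. Without replicate 3 of control day 9, each of these 6 differences was negative, at -0.73 for Dct, -0.66 for Tyrp1, -0.70 for Tyr, -1.27 for Pmel, -0.85 for Mlana and -0.75 for Slc45a2. None passed there either, with adjusted p from 0.0530 for Slc45a2 to 0.438 for Dct by limma-trend, and 5.97% of all genes did. That library had the lowest control value of day 9 for each of the 6, and was left out after this was seen. Leaving it out lowers every difference, so the negative signs support nothing. Slc45a2 was tested only because replicates 1 and 2 of control day 9, which were kept, reached 1 FPKM.

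At day 3 Mlana had the largest difference of the 7, 0.88 (-0.47 to 2.24, adjusted p = 0.679 by limma-trend), and Tyrp1 had 0.47 (-1.26 to 2.202). Mlana, Tyrp1 and Mitf were the 3 members with all irradiated libraries above all control libraries that day, which held for 15.9% of all tested genes. Mitf differed by 0.42 (0.08 to 0.76, adjusted p = 0.289), and by 0.23 averaged over days (0.03 to 0.42, adjusted p = 0.158). At day 6 the differences ran from -0.57 for Mlana (-2.05 to 0.92) to 0.14 for Mitf (-0.24 to 0.51), and Mlana was the member with both irradiated libraries below both control libraries, as 16.0% of all tested genes were.

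**Figure D2:**
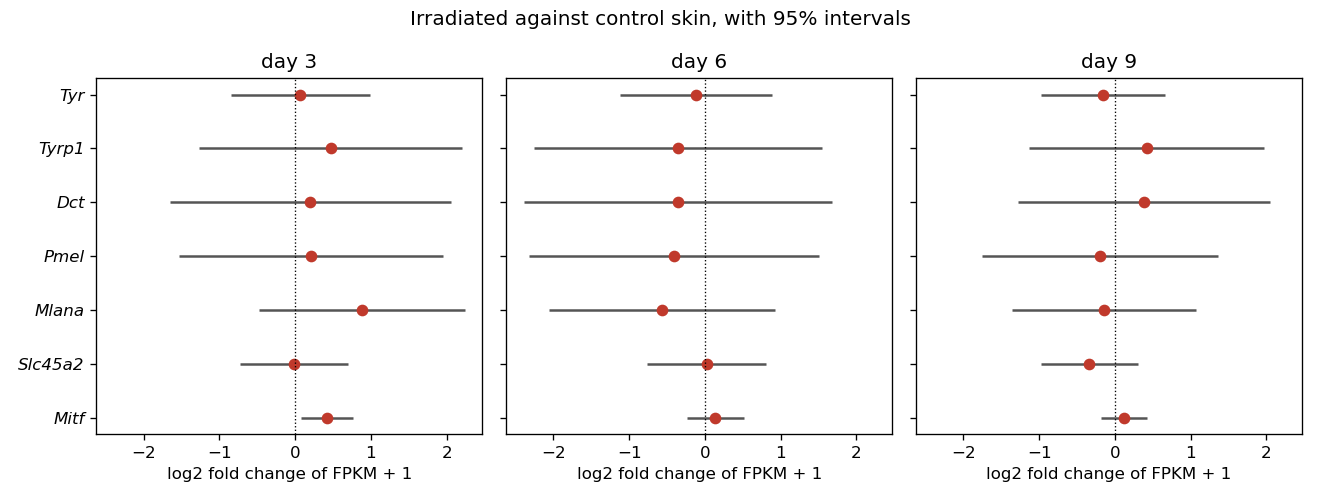
Log2 fold change of FPKM + 1, irradiated over control (horizontal axis), for the 7 tested genes at days 3, 6 and 9; points are estimates and bars 95% intervals from limma-trend. Every interval but that of Mitf at day 3 (0.08 to 0.76) includes 0.

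Against day 0, Dct and Mlana were higher at day 9 in both arms, and the other members passed in 1 arm or in neither. In irradiated skin at day 9, 3 of 7 rose (29.6% of all tested genes were higher and 46.2% passed in either direction): Dct by 2.61 (SE 0.86, adjusted p = 0.0253), Mlana by 2.42 (SE 0.62, adjusted p = 0.00754) and Tyrp1 by 2.32 (SE 0.80, adjusted p = 0.0312). Pmel stood at 2.01 (adjusted p = 0.0572), Tyr at 0.95 (0.0834), Slc45a2 at 0.66 (0.120) and Mitf at -0.21. The share of members that passed was near that of all genes in either direction. In control skin at day 9, 5 of 7 rose (30.4% were higher, 48.4% passed in either direction): Mlana by 2.56 (SE 0.62, adjusted p = 0.00501), Dct by 2.23 (adjusted p = 0.0476), Pmel by 2.21 (0.0379), Tyr by 1.11 (0.0458) and Slc45a2 by 0.996 (0.0250). Tyrp1 stood at 1.90 (0.0663) and Mitf at -0.33. Slc45a2 was tested only because replicates 1 and 2 of control day 9 reached 1 FPKM, and Tyr only because day 9 libraries of both arms did, so the filter favoured a rise to day 9 in both genes and their calls, and the count that holds them, are no support for one. These comparisons share the 2 day 0 libraries, and all tested genes together had a median of 0.15 in each, on the same log2 scale.

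These calls depended on single libraries. With each library left out in turn, 0 to 6 of 7 members passed for irradiated and 0 to 6 for control skin at day 9. Without replicate 1 of control day 0, 0 passed in either arm, and without its replicate 2, 1 passed in each. Without replicate 3 of control day 9, 6 passed in each arm, every member but Mitf. Leaving out this library, the lowest of its group in pigment genes, favours such calls, and Tyr and Slc45a2 are among the 6. Leaving out replicate 1 or replicate 2 of control day 9 left 1 passing in control skin, and leaving out replicate 2 or replicate 3 of irradiated day 9 left 1 in irradiated skin. In irradiated skin 5 passed without its own replicate 1 and 6 without replicate 2 of control day 9. In control skin 3 passed without any 1 library of day 3, of irradiated day 6, or replicate 2 or 3 of irradiated day 9. A fit of the day 0 and day 9 controls alone called 0 of 7, and limma-voom called 2 in control and 1 in irradiated skin. Mlana kept its call most often, in 25 of 26 alternatives for irradiated and 24 of 26 for control skin at day 9, while Dct and Tyr kept theirs in control skin in 6 of 26 each. Per library, 7 of 8 members (all but Mitf) lay above both day 0 libraries in every irradiated library of day 9, and 3 (Mlana, Oca2 and Slc45a2) did in every control library of day 9, as 40.9% and 40.2% of all tested genes did. At day 3, 6 of 8 did in irradiated skin (42.3% of all tested genes) and 5 in control skin (45.2%), and at day 6, 5 did in irradiated skin (37.3%) and 4 in control skin (37.7%). The shares cover tested genes, and Oca2 was not tested. In replicate 3 of control day 9, Oca2 lay above day 0 through 1 fragment against 0. Tyr and Slc45a2 passed the filter only through day 9 libraries, so the day 9 counts are no support for a rise.

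Earlier days differed less from day 0. At day 3, 1 of 7 rose in irradiated skin (30.1% of all genes were higher), Mlana, by 1.88 (SE 0.62, adjusted p = 0.0265), and 0 of 7 in control skin (25.8% higher, 38.1% in either direction). The Mlana call was lost with limma-voom (adjusted p = 0.0941), with no filter, and without replicate 1 of control day 0 (adjusted p = 0.164) or any 1 irradiated day 3 library (adjusted p from 0.0524 to 0.0608). At day 6, 0 of 7 passed in irradiated skin (22.1% were higher, 35.1% passed in either direction) and 0 of 7 in control skin (21.1% and 35.3%). At an unadjusted p under 0.05 the day 3 and day 6 controls had 1 gene each, Mitf, at -0.41 (adjusted p = 0.0799) and -0.47 (0.0502), and irradiated day 6 had 0. Of all 15271 tested genes, 7226, 6954 and 6948 had such a p in these comparisons. With limma-voom, 0 passed for control day 3 and irradiated day 6 and 1 for control day 6. Under median-of-ratios scaling Mitf did pass, at -0.59 for control day 3 and -0.58 for control day 6. It also did at -0.46 for irradiated day 6 and -0.45 for control day 9. This scaling moved the median of all genes against day 0 by over 0.1, at control day 3 from 0.16 to -0.01. Of the 26 alternatives, 9 called Mitf lower at control day 6. At control day 3, irradiated day 6 and control day 9, 2 each did, and at irradiated day 9, 1 did. Irradiated day 9 against irradiated day 3 gave 0 of 7, with 0 at an unadjusted p under 0.05 (0.963% of all genes passed), and control day 9 against control day 3 gave 0 of 7 (18.2%, with 8.02% higher), though Mlana at 1.56 and Slc45a2 at 0.81 had an unadjusted p under 0.05, and limma-voom called 0. Without replicate 3 of control day 9, 6 of 7 were higher at control day 9 than at control day 3 (7.51% of all genes were), but that library was left out after its low pigment values were seen and Tyr and Slc45a2 are among the 6.

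Within a group, the pigment genes other than Mitf varied together. In control day 9 the highest library exceeded the lowest 19.5-fold for Dct, 28.8-fold for Tyrp1, 44.8-fold for Tyr, 21.9-fold for Pmel, 7.502-fold for Mlana and 15.3-fold for Slc45a2, against 1.11-fold for Mitf, and for each it was replicate 2 over replicate 3. In irradiated day 9 the highest exceeded the lowest, replicate 1, by 2.76-fold for Pmel to 5.74-fold for Oca2, and by 1.26-fold for Mitf. In control day 6, replicate 2 had 3.29 times the Dct and 4.27 times the Tyr of replicate 1. The 4 highest of the 17 libraries were the same for each of the 7 genes: replicates 2 and 3 of irradiated day 9 and replicates 1 and 2 of control day 9.

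Over the 17 libraries, log2(FPKM + 1) of the 21 pairs among these 7 genes correlated with Pearson's r of 0.735 to 0.992 (median 0.930). With group means removed, r was 0.848 to 0.992, and the largest deviations were those of control day 9. Pairs with Mitf had r of -0.046 to 0.136, and 0.223 to 0.494 with group means removed. Against the mean of the other tested members (scaled per gene, without Mitf), r was 0.980 for Pmel, 0.9751 for Tyr, 0.969 for Dct, 0.964 for Tyrp1, 0.929 for Mlana, 0.927 for Slc45a2, 0.842 for Oca2 and 0.063 for Mitf. The libraries share depth and preparation, and these values describe the samples at hand.

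The composition varied less than the level for the 4 abundant genes. Of the summed FPKM of the 7 genes, Dct made up 23.1% to 40.6% over the libraries (median 33.8%), Mlana 17.4% to 49.4% (27.1%), Tyrp1 8.11% to 23.0% (17.5%), Pmel 11.005% to 24.6% (17.1%), Tyr 0.554% to 2.87% (1.53%), Slc45a2 0.285% to 2.17% (1.11%) and Oca2 0% to 0.979% (0.121%). The order of the medians was Dct, Mlana, Tyrp1, Pmel, Tyr, Slc45a2 and Oca2. The ranges of neighbours in this order overlapped, except those of Pmel and Tyr. Oca2 peaked at 0.911% and 0.979% in replicates 1 and 2 of control day 9 and was 0.123% in its replicate 3, while irradiated day 9 had 0.155% to 0.333%.

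Hair follicle genes were among the genes most like the members. Among 13277 named protein-coding genes, the 10 with the highest r to the mean of the 6 tested pigment genes over the 17 libraries were Mcoln3 (0.925), Dlx2 (0.915), Scube3 (0.906), Msx2 (0.905), Mycn (0.898), Krt35 (0.896), Trpm1 (0.895), Hoxc13 (0.894), Foxe1 (0.890) and Dlx3 (0.881). Krt35 is a keratin of the hair shaft, Hoxc13, Msx2 and Dlx3 are transcription factors of the hair matrix, and Trpm1 is a melanocyte ion channel. The median over all ranked genes was 0.109, and 4 genes exceeded 0.9. By ranks the likeness was lower for most: Spearman's rho was 0.944 for Mcoln3 and 0.875 for Trpm1, and 0.534 to 0.642 for the other 8. Krt35, for one, had 0 to 0.328 FPKM in the libraries of days 0 to 6, so its r came from the day 9 libraries. The genes ranked had passed the filter, and of these 10 all but Hoxc13 and Dlx3 reached 1 FPKM in day 9 libraries only. The filter thus favoured a high r for such genes, and the ranking is given as a description. With group means removed the 5 highest were Dclk3 (0.968), Trpm1 (0.952), Dlx2 (0.951), Mycn (0.946) and Sncaip (0.943). The mean of the pigment genes then ran from -2.69 to 2.02 in control day 9 and from -1.26 to 0.672 elsewhere. These r values thus rest largely on that group, the only one in which Dclk3 reached 1 FPKM. Without the removal, Sncaip had r of 0.533 and rho of 0.199, and Dclk3 had r of 0.842 and rho of 0.574.

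**Figure D3:**
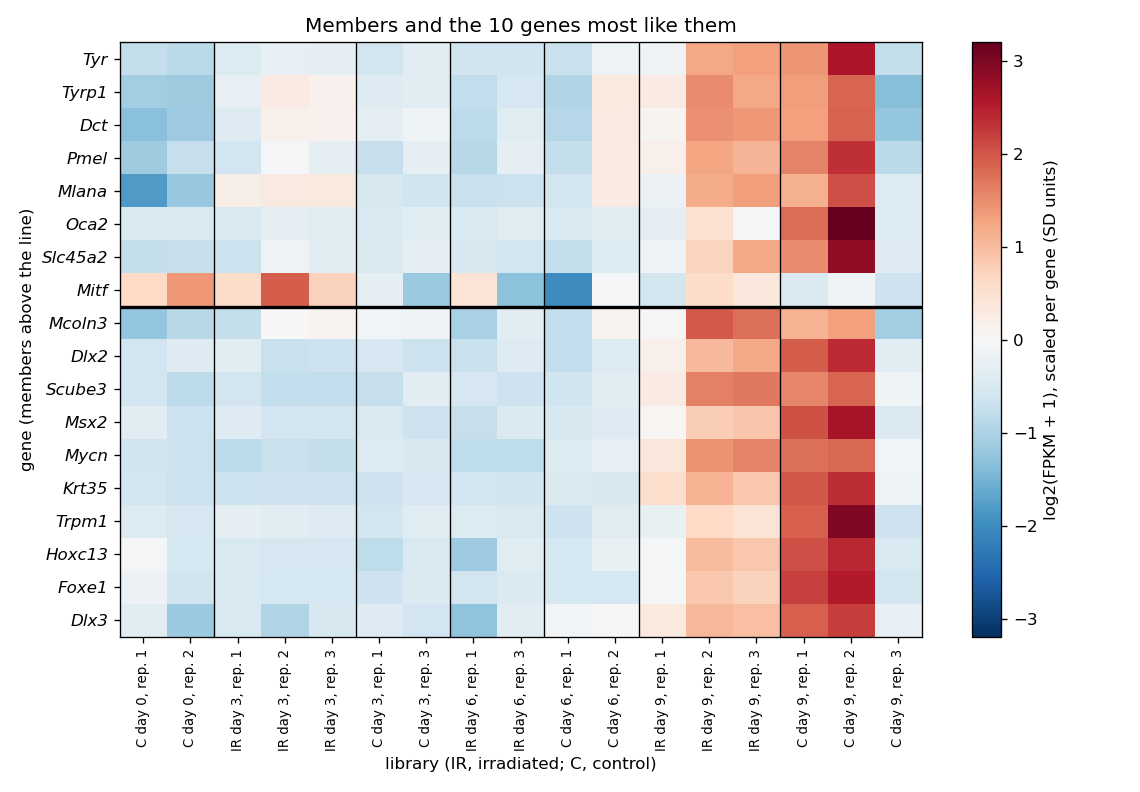
Log2(FPKM + 1) of the 8 genes (above the line) and the 10 genes most like them, scaled per gene to mean 0 and SD 1, in the 17 libraries (columns, irradiated IR and control C by day). For most genes the warm block covers replicates 2 and 3 of irradiated day 9 and replicates 1 and 2 of control day 9; Mitf has another pattern.

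A list of hair shaft and matrix genes was set beside the pigment genes. It held 14 measured genes, among them hair keratins. Their summed FPKM was 11.8, 23.6 and 20.0 in irradiated skin at day 9, against 72.0, 133.0 and 7.41 in control skin at day 9, and 3.16 to 6.74 in every earlier library. At day 9 the 7 pigment genes without Mitf summed to 20.5, 63.6 and 60.3 FPKM in irradiated skin, against 63.0, 110.9 and 7.39 FPKM in control skin. Pigment over hair RNA was therefore 1.74, 2.69 and 3.02 in irradiated skin and 0.876, 0.834 and 0.998 in control skin at day 9, with no overlap. In the earlier libraries the ratio was 0.747 to 4.65 in control and 2.40 to 4.98 in irradiated skin. The day 9 ratios of both arms thus lay inside the earlier control range. In replicate 3 of control day 9 the hair sum, 7.41 FPKM, was close to those of the earlier libraries. This ratio was computed after the values were seen and is given with no test.

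Of 13 tested hair genes, 2 passed as lower in irradiated than in control skin at day 9 (3.05% of all genes were lower), the hair keratin genes Krt31, at -2.05 (SE 0.52, adjusted p = 0.0443), and Krt83, at -1.999 (SE 0.47, adjusted p = 0.0329). With limma-voom on recovered fragments, 0 of 13 passed. Both genes, and 7 of the 13 in all, reached 1 FPKM in no library but replicates 1 and 2 of control day 9, so they entered the test through the group where they are high, and these calls are given as a description. A further 3 of the 13, Krt35 among them, passed the filter through day 9 libraries of both arms. Krt35 had 3.52, 7.80 and 5.46 FPKM in irradiated skin at day 9, against 24.0, 38.6 and 0.904 FPKM in control skin. The difference between the hair and the pigment genes was itself not tested.

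**Figure D4:**
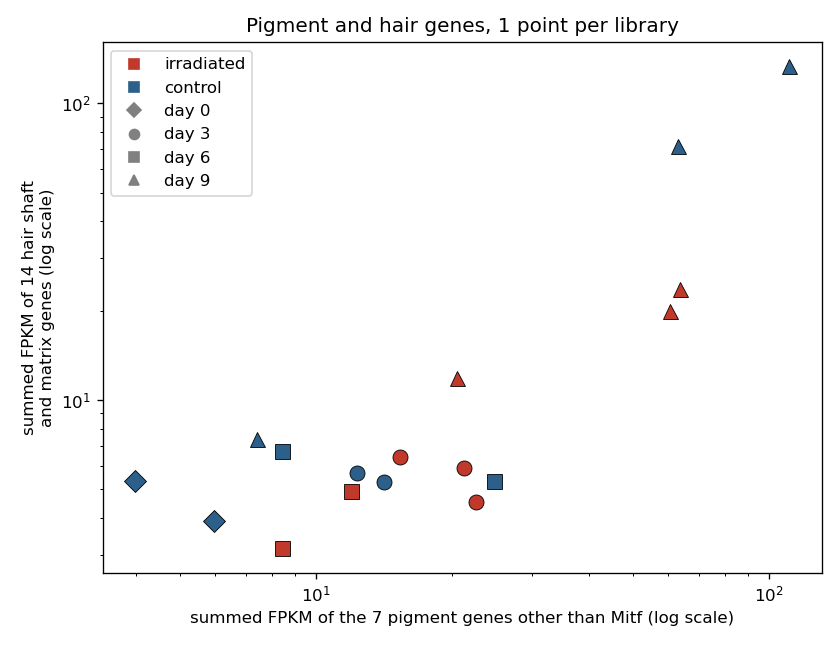
Summed FPKM of the 7 pigment genes other than Mitf (horizontal, log scale) against that of 14 hair shaft and matrix genes (vertical, log scale), 1 point per library; colour gives the arm and shape the day. At day 9 the irradiated libraries lie at 11.8 to 23.6 FPKM of hair genes and the control libraries at 7.41 to 133.0 FPKM.

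Among 15 other genes of the melanocyte, 10 were tested. Mfsd12, which moves cysteine into melanosomes and lysosomes, rose in irradiated skin at day 3 by 0.89 (SE 0.19, adjusted p = 0.0331 by limma-trend). Averaged over days it rose by 0.57 (SE 0.11, adjusted p = 0.00850 by limma-trend). It was the only member of the list to pass in either comparison (1.56% and 4.36% of all genes were higher). Mfsd12 had 6.72, 6.49 and 5.69 FPKM in irradiated skin at day 3, against 3.27 and 2.61 FPKM in control skin, and 4.95, 4.90 and 5.86 FPKM against 3.71, 2.86 and 3.06 FPKM at day 9. At day 6 the arms overlapped, with 283 and 408 recovered fragments in irradiated and 203 and 369 in control libraries. Its r with the pigment genes was 0.381, or 0.208 with group means removed. No gene of the list passed at day 6 or day 9 by limma-trend or limma-voom, and 0 and 1 had an unadjusted p under 0.05. Trpm1 had 0.183, 0.487 and 0.408 FPKM in irradiated skin at day 9, against 1.07, 1.72 and 0.0612 FPKM in control skin (-0.42, adjusted p = 0.343). Slc24a5, a melanosomal ion exchanger, had 0.423, 0.657 and 0.681 FPKM, against 1.40, 2.06 and 0.403 FPKM (-0.46, adjusted p = 0.225). Trpm1 and Slc24a5 reached 1 FPKM only in replicates 1 and 2 of control day 9, and replicate 3 was the lowest of the 6 day 9 libraries for both.

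Receptors and a transcription factor of the lineage varied in their likeness to the pigment genes. Kit, the receptor tyrosine kinase of melanoblasts, had 1.56, 1.91 and 1.93 FPKM in irradiated skin at day 9, against 2.25, 3.06 and 2.56 FPKM in control skin (-0.37, adjusted p = 0.311). All irradiated libraries lay below all control libraries, as they did for 17.2% of all tested genes, and r with the pigment genes was 0.590, or 0.157 with group means removed. Whole skin was sequenced, so Kit RNA from cells other than melanocytes was not separated. Against day 0 Kit rose by 0.84 in irradiated (adjusted p = 0.0105) and by 1.21 in control skin (adjusted p = 0.00106) at day 9. Sox10, the transcription factor shared by melanocytes and Schwann cells, had 1.59, 4.84 and 5.53 FPKM in irradiated skin at day 9, against 4.09, 3.33 and 2.61 FPKM in control skin, (0.10, adjusted p = 0.866), and r of 0.0275 with the pigment genes, or 0.606 with group means removed. Ednrb, the endothelin receptor, differed by 0.50 at day 9 (adjusted p = 0.464). Of the 10 tested, 6 rose against day 0 at irradiated day 9 (29.6% of all genes were higher, 46.2% passed in either direction). At control day 9, 5 did (30.4% and 48.4%). Slc24a5, among the 5, was tested only through replicates 1 and 2 of control day 9, so that count is no support for a rise. Gpnmb, a melanosome glycoprotein that macrophages also express, rose most, by 1.54 (adjusted p = 0.00441) and 1.58 (adjusted p = 0.00350), in the same order.

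The genes Mc1r and Gpr143 failed the filter. Mc1r, the melanocortin receptor, had 0.150, 0.341 and 0.548 FPKM in irradiated skin at day 9, against 0.742, 0.968 and 0.0595 FPKM in control skin. Gpr143, a melanosomal receptor, had 0.0915, 0.292 and 0.203 FPKM, against 0.505, 0.560 and 0.0362 FPKM. For both, replicate 3 of control day 9 was again below all irradiated libraries, and the other control libraries were above them.

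Of 11 measured signals to melanocytes, 8 were tested. Edn1, whose product endothelin 1 stimulates melanocytes, fell in irradiated skin at day 9 by 0.64 on the log2 scale (SE 0.13, adjusted p = 0.0204 by limma-trend). It was the 1 gene of the list to pass that day (3.05% of all genes were lower), with 3.12, 3.07 and 2.92 FPKM against 4.18, 5.11 and 6.78 FPKM in control skin. Its highest value was in replicate 3 of control day 9, where pigment genes were the lowest of that group. Kitl, the ligand of Kit, had 7.85, 9.24 and 10.3 FPKM against 10.5, 8.90 and 7.23 FPKM (0.04, adjusted p = 0.889). None of the list passed at day 3, at day 6 or in the average by limma-trend or limma-voom, with 0, 1 and 1 at an unadjusted p under 0.05. Among 23 tested genes of melanosome assembly and transport, 0 passed on any single day by limma-trend or limma-voom, with 7, 4 and 4 at an unadjusted p under 0.05 at days 3, 6 and 9. Of all 15271 tested genes, 1741, 2345 and 3470 had such a p on these days. In the average 4 rose (4.36% of all genes were higher), among them Vps33a by 0.30, Dtnbp1 by 0.26 and Bloc1s6 by 0.22, and Rab27a, the GTPase that ties melanosomes to their motor, fell (2.57% of all genes were lower) by 0.37 (SE 0.08, adjusted p = 0.0200). Under scaling to nuclear genes, 0 rose and 1 fell. Most of these genes serve lysosome-related organelles in many cell types, and the list's median r with the pigment genes was 0.124.

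Markers of other cells of the skin had lower r with the pigment genes than the hair list, and several differed between the arms. In irradiated skin at day 9, 6 of 10 mast cell markers were higher (2.33% of all genes were), with summed levels of 124.4 to 258.9 FPKM against 29.3 to 40.5 FPKM in control skin, and 5 of 10 were without replicate 3 of control day 9. The 10 Schwann cell markers summed to 117.1 to 128.9 FPKM in irradiated and 86.3 to 91.0 FPKM in control skin at day 9, with 0 passing by limma-trend or limma-voom and 2 at an unadjusted p under 0.05. The 10 macrophage markers summed to 2008 to 2284 FPKM against 1749 to 2450 FPKM, and the 8 basal keratinocyte markers to 10148 to 11075 FPKM against 3928 to 8471 FPKM, with Itgb4 higher by 1.19 (adjusted p = 0.00953 by limma-trend). Median r with the pigment genes was -0.44 for Schwann cell, -0.018 for mast cell, 0.117 for macrophage, -0.17 for basal keratinocyte and -0.56 for muscle markers, against 0.737 for the hair list. Of the 13 tested hair genes, 10 passed the filter only through day 9 libraries, against 0 in each of these other lists. The filter thus favoured a high r for the hair list, and this contrast is given as a description. No marker of these lists was at 0 in all libraries. Their part in the pigment results was not tested.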

How the data were processed

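RNA of whole mouse skin was made into Smart-Seq2 libraries and sequenced as read pairs on an Illumina NovaSeq, per the labels' protocols. The deposited FPKM values, 1 column per library, are the authors' own; the submitters' processing notes name HISAT2 2.2.1 and mm10, while no label or header names the counting tool or the annotation, each not given in the sources used here. No counts stand beside them. With gene lengths of GENCODE M21, 99.844% of nonzero values came to whole fragments (within 0.01), after a search for the length in 2437 genes, Dct and Mlana among them. FPKM were tested with limma 3.58.1 (limma-trend, R 4.3.3) on log2(FPKM + 1), which understates changes of low genes such as Tyr and Slc45a2, in 1 fit of all 17 libraries with a mean per group, for 13 comparisons. The code was tested on simulated data. Alternatives were 26: pseudocount 0.1, other filters, 3 scalings, the compared groups alone, the replicate block, limma-voom on recovered fragments, and each library left out. The members and lists were chosen with earlier results of these data known. Named genes were the members, up to 4 passing genes of each list by size of change, Kit, Kitl, Sox10, Mc1r, Ednrb, Gpr143, Slc24a5 and Trpm1, and the 10 genes most like the members, with the 5 highest after removal of group means. Values per library used Python 3.11.15.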

Additional observations from a re-analysis of the deposited data

Results flagged for a closer look

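Mlana was the member whose arms separated in opposite directions on 2 days. All irradiated libraries of day 3 lay above both controls, and both irradiated libraries of day 6 lay below both controls. The log2 difference between irradiated and control skin was 1.45 higher at day 3 than at day 6. This pair of days was not tested by itself, and the F test over the 3 days gave Mlana an adjusted p of 0.599 by limma-trend.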

How the results depend on the processing

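Counts of members that passed, of 7, changed as follows (limma-trend in all but the limma-voom fits). For irradiated against control skin at day 3, a fit of those groups alone called 1, against 0. For control day 3 against day 0 (0), median-of-ratios and quantile scaling called 1 each and the groups alone 2. For control day 6 (0), median-of-ratios, quantile and nuclear-total scaling, the replicate block and limma-voom called 1 each, and leaving out a library 0 to 1. For control day 9 (5), no filter called 2, the filter at 0.1 FPKM 3, quantile scaling 3, the groups alone 0, limma-voom 2 and leaving out a library 0 to 6. For irradiated day 3 (1), no filter and limma-voom called 0, the groups alone 3 and leaving out a library 0 to 3. For irradiated day 6 (0), median-of-ratios and quantile scaling called 1 each. For irradiated day 9 (3), pseudocount 0.1 called 6, no filter 1, limma-voom 1 and leaving out a library 0 to 6. For control day 9 against control day 3 (0), leaving out a library called 0 to 6. The causes were not tested.

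Directions of single genes also turned, none of them in a call. With the replicate block, differences between arms were -0.14 at day 3 and 0.17 at day 6 for Dct, -0.087 and 0.13 for Tyr, -0.14 and 0.14 for Pmel, and 0.20 at day 6 for Tyrp1, and Mitf had -0.00013 for control day 9 against day 3. Tyr turned to 0.11 at day 9 with pseudocount 0.1, and to 0.34 at day 9 and 0.061 in the average with limma-voom. With quantile scaling, against day 0, Tyr had -0.0023 at control day 3, -0.017 at control day 6 and -0.055 at irradiated day 6, and Slc45a2 had -0.0074 at control day 3, -0.15 at control day 6, -0.040 at irradiated day 3 and -0.048 at irradiated day 6. Mitf at irradiated day 3 against day 0 had -0.14 with median-of-ratios, -0.15 with quantile and -0.12 with nuclear-total scaling. With each library left out, arm differences ranged at day 3 from -0.010 to 0.14 for Tyr, -0.039 to 0.46 for Pmel and -0.074 to 0.050 for Slc45a2. At day 6 they ranged from -1.06 to 0.35 for Dct, -0.29 to 0.052 for Tyr, -1.05 to 0.33 for Tyrp1, -0.98 to 0.17 for Pmel, -0.062 to 0.11 for Slc45a2 and -0.089 to 0.36 for Mitf. At day 9 they ranged from -0.73 to 1.11 for Dct, -0.70 to 0.28 for Tyr, -0.66 to 1.10 for Tyrp1, -1.27 to 0.55 for Pmel, -0.85 to 0.45 for Mlana and -0.75 to 0.029 for Slc45a2. In the average they ranged from -0.29 to 0.32 for Dct, -0.25 to 0.076 for Tyr, -0.18 to 0.41 for Tyrp1, -0.49 to 0.12 for Pmel, -0.18 to 0.26 for Mlana and -0.25 to 0.011 for Slc45a2. Slc45a2 at control day 6 against day 0 ranged from -0.0085 to 0.16, and Mitf from -0.080 to 0.10 at irradiated day 3 against day 0 and from -0.022 to 0.18 at control day 9 against day 3.

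Over all genes, the count at day 6 (42) was 73 with no filter, 0 with the groups alone, 13 with the block and 18 with limma-voom, and that at day 9 (822) was 534 with no filter and 1246 with quantile scaling. The F test (2) called 26 with no filter and 14 with the filter at 0.1 FPKM. The groups alone called 1981 at control day 3 (5824), 360 at control day 6 (5394) and 0 at irradiated day 6 (5364), all against day 0. Irradiated day 9 against day 3 (147) gave 66 with no filter and 658 with the groups alone. Of day 9 calls between arms, 43.3% were higher, against 28.8% with nuclear-total scaling, and of control day 9 calls against day 0, 62.8%, against 50.1% with median-of-ratios scaling. Same-numbered libraries of the arms deviated with r from -0.12 to 0.298, so the numbers were not taken to pair samples, and the block called 0 members between arms and, of the other melanocyte genes, 0 at day 3 in place of 1 (Mfsd12). Leaving out replicate 3 of control day 9 for the lists was chosen after seeing the data, and 7 of 13 hair genes, Trpm1, Slc24a5 and Lef1 passed the filter only through replicates 1 and 2 of that group. Day 9 calls between arms then went to 11 hair genes in place of 2, 2 other melanocyte genes in place of 0 and 2 signals in place of 1, an outcome that this choice of library favours and that supports nothing. Below about 1 FPKM, as for Oca2, depth limits every comparison.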
